A study of Mus musculus with 16 samples.

Results

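LPS given once at puberty was compared with saline in whole brains of male C57BL/6 mice whose dams had received saline. The comparison holds 8 of the 16 libraries of the series, 4 labelled saline-LPS and 4 labelled saline-saline, each from 1 mouse, and every gene of their count files. Lipopolysaccharide (LPS), part of the outer membrane of Gram-negative bacteria, or saline was injected intraperitoneally into the dam on gestation day 16 and into the male offspring at postnatal day 30, and brains were taken at postnatal day 32, 2 days after the second injection. Mice of both groups therefore had a saline-injected dam and differed only in the injection at puberty, provided that the first word of each group name stands for the dam, which is a reading of the labels. The labels give neither the dose nor the litters, so mice of a group may share a dam, and p-values refer to the spread between the mice sampled. The other 8 libraries come from offspring of LPS-injected dams, 4 then given saline (LPS-saline) and 4 given LPS (LPS-LPS), and served to estimate the spread.

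LPS is bound by LPS-binding protein and CD14 and handed to the receptor TLR4 with its partner MD-2. TLR4 signals through MyD88 to NF-kB, which switches on cytokines, chemokines and its own inhibitor, and through TRIF to type I interferon and its target genes. In the brain, systemic LPS is known to act first on endothelium, perivascular macrophages and circulating mediators, with microglia and astrocytes following, and most cytokine transcripts are known to be transient.

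Libraries held 26813584 to 37545241 gene counts. Levels below are in CPM, a gene's count scaled to the library's total of gene counts after TMM adjustment (factors 0.993 to 1.01). Counting error alone is small above a few CPM, and the labels mention no molecular identifiers. Standard errors (SE) and intervals come from edgeR's quasi-likelihood test, in which all 4 groups share 1 estimate of the spread, and include the spread between mice. The female-specific Xist stayed between 0.0375 and 0.276 CPM and the Y-linked Ddx3y between 35.6 and 68.2 CPM in the 8 libraries, as male mice have them, whereas 1 LPS-LPS library had the reverse pattern (Xist 503 CPM, Ddx3y 0 CPM). Neuronal markers were high in all 8 libraries, at 6328 to 7220 CPM summed over 11 genes in saline-saline and 6286 to 7187 CPM in saline-LPS. The label whole brain was not matched equally by the libraries, however: Gabra6 and Cbln3, markers of cerebellar granule cells, were below 1 CPM in 5 of the 8, and pituitary hormone RNA was high in 1. Saline-LPS replicate 1, the library with the pituitary RNA, also stood apart from the other 3 of its group in many genes, so results are given with and without it where it matters.

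No gene passed the test between pubertal LPS and saline 2 days after the injection. Of 18875 tested genes, 0 (0%) passed edgeR's quasi-likelihood test at a Benjamini-Hochberg adjusted p under 0.05. At an unadjusted p under 0.05 there were 535 genes (2.83%), 310 higher (1.64%) and 225 lower (1.19%), where 944 would be expected on average if no gene differed. Genes are not independent, so such a count can vary widely around that number. DESeq2 also called 0 (656 at an unadjusted p under 0.05), as did limma voom (536). The count rested on saline-LPS replicate 1: without it 3 genes passed and 1871 reached an unadjusted p under 0.05, which is described further on.

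The size of change that these data leave room for depended on expression. For 16885 genes (89.5%) the whole 95% interval of the difference lay inside a 2-fold change in either direction, for 13919 (73.7%) inside 1.5-fold and for 8108 (43%) inside 1.2-fold. Among the 2378 genes above 100 CPM, 99.96% were bounded within 2-fold and 86.9% within 1.2-fold, and among the 7995 genes of 10 to 100 CPM 99.6% and 71.9%. Between 1 and 10 CPM 97.7% of 4898 genes were bounded within 2-fold but only 5.98% within 1.2-fold. Below 1 CPM the share within 2-fold was 48.8% of 3604 genes, so that changes of 2-fold or more were not excluded for the others. The intervals hold gene by gene and not for all genes together.

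**Figure D1:**
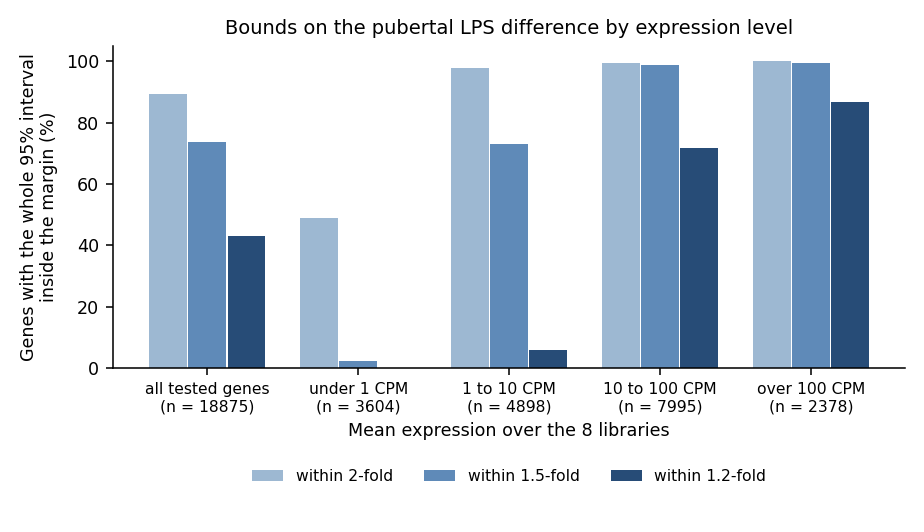
Share of tested genes (%, y axis) whose whole 95% interval for saline-LPS minus saline-saline lies within 2-fold, 1.5-fold or 1.2-fold, by mean expression over the 8 libraries (x axis, with the number of genes). The share within 2-fold runs from 48.8% below 1 CPM to 99.96% above 100 CPM.

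Few abundant genes escaped these bounds. Of 11923 genes with a mean of at least 5 CPM, 52 were not bounded within 2-fold, and 15 of these belonged to the marker lists of cerebellum, hindbrain, red blood cells, pituitary or thalamus. The only one above 100 CPM was AC149090.1, with a log2 difference of 0.30 (95% interval -0.71 to 1.31). The Y-linked Ddx3y, Eif2s3y, Kdm5d and Uty were among the 52 as well, in a fit that includes the LPS-LPS library without Ddx3y. Estimates of at least 2-fold were found for 63 genes, only 8 of them at 1 CPM or more.

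LPS recognition genes were measured at low but usable levels and lay close together in the groups. Tlr4, the LPS receptor, stood at 1.15, 1.25, 1.03 and 0.867 CPM in the 4 saline-saline libraries and 1.00, 1.43, 1.17 and 1.59 CPM in saline-LPS, a log2 difference of 0.27 (SE 0.26, 95% interval -0.26 to 0.80). Cd14, its co-receptor, stood at 2.004, 2.54, 1.41 and 1.45 CPM in saline-saline and 2.84, 1.46, 1.95 and 2.18 CPM in saline-LPS with a log2 difference of 0.20 (SE 0.20, 95% interval -0.21 to 0.60). The values overlapped for both genes, and both intervals lay within 2-fold. Lbp, which carries LPS to CD14, had 7.24, 6.63, 6.32 and 5.33 CPM in saline-saline and 8.47, 7.81, 8.12 and 6.53 CPM in saline-LPS, the only one of 24 tested members of the LPS sensing and NF-kB list with an unadjusted p under 0.05 (0.0206, log2 0.27, adjusted p = 1.00). Its groups overlapped, since saline-LPS replicate 4 was below 2 of the saline-saline libraries. Nfkbia, the inhibitor that NF-kB induces to switch itself off, had 18.0, 19.2, 25.2 and 18.3 CPM in saline-saline and 21.97, 20.7, 21.7 and 20.2 CPM in saline-LPS. Saline-saline replicate 3 was the highest of the 8, and the log2 difference of 0.07 (SE 0.09, 95% interval -0.12 to 0.25) limits a change of Nfkbia to 0.919 to 1.19-fold. Of the 24 genes, 23 were bounded within 2-fold and 18 within 1.5-fold; Bcl3, an NF-kB cofactor below 1 CPM, was not bounded. The median log2 difference of the list was -0.01, beside 0.0026 over all tested genes.

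Cytokines and chemokines were mostly too scarce to test. Of 25 listed genes 15 were removed by the filter on low counts, and their group sums are given as raw counts, out of 121743282 gene counts in saline-LPS and 137987581 in saline-saline. Il1b, the main pyrogenic cytokine, had 28 counts in saline-LPS and 22 in saline-saline, and no library exceeded 0.422 CPM. Tnf had 0 counts in saline-LPS, which allows up to 3 counts or 0.0246 CPM of the group's unadjusted total, and 9 in saline-saline. Il6 had 3 and 3 counts, the monocyte attractant Ccl2 10 and 4, and Cxcl2 none in either group. All of these amount to a few reads per library in both groups. Ccl3, another chemokine of activated microglia, had 14 counts in saline-LPS and 33 in saline-saline, lower in each saline-LPS library than in any saline-saline library, but was not tested.

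Among the 10 cytokine genes that were tested, 7 were bounded within 2-fold and the median log2 difference was -0.02. Cxcl10, an interferon-induced attractant of T cells, stood at 0.0802, 0.0597, 0.111 and 0.129 CPM in saline-saline and 0.125, 0.113, 0.390 and 0.307 CPM in saline-LPS. These are 29 counts in saline-LPS and 13 in saline-saline, and the log2 difference of 1.33 (SE 0.77, 95% interval -0.27 to 2.93) spans 0.828 to 7.61-fold. Saline-LPS replicates 3 and 4 were above all other libraries, and replicates 1 and 2 lay within the range of saline-saline. Ccl12, a monocyte attractant, was lower in every saline-LPS library, at 0.401, 0.507, 0.277 and 0.386 CPM in saline-saline and 0.250, 0.263, 0.162 and 0.215 CPM in saline-LPS (27 against 54 counts, log2 -0.82 (SE 0.38, 95% interval -1.61 to -0.03), unadjusted p = 0.0420, adjusted p = 1.00). Such separation of the groups occurred for 130 genes in this direction (0.689%) and for 161 in the other (0.853%).

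**Figure D2:**
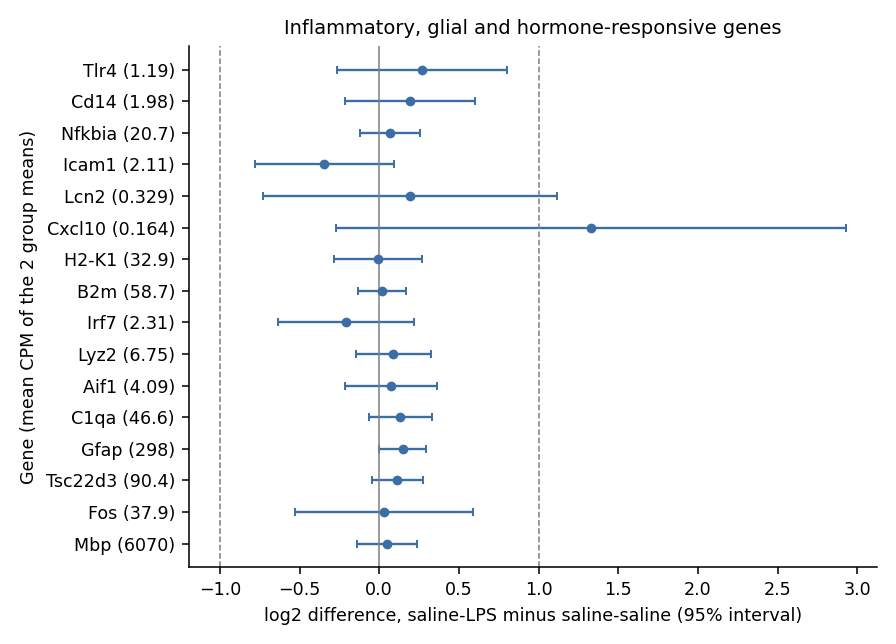
Log2 difference between saline-LPS and saline-saline (x axis; point, estimate; bar, 95% interval) for 16 inflammatory, glial, hormone-responsive and neuronal activity genes, with their mean CPM in brackets on the y axis; dashed lines mark 2-fold. The intervals of all but Lcn2 and Cxcl10, the least abundant of the 16, lie inside 2-fold, and all 16 include 0.

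Acute-phase and endothelial genes likewise gave no call. Lcn2, which sequesters bacterial iron carriers, had 42 counts in each group, 0.401, 0.478, 0.111 and 0.225 CPM in saline-saline and 0.219, 0.526, 0.455 and 0.215 CPM in saline-LPS, and a log2 difference of 0.19 (SE 0.44, 95% interval -0.73 to 1.11). Saa3, a serum amyloid protein induced by LPS, had 3 counts in saline-LPS, all in replicate 1, and 7 in saline-saline. The interval of Saa3 accordingly ran from -4.96 to 2.89 on the log2 scale. Icam1, an adhesion molecule of activated endothelium, had 2.62, 2.99, 1.28 and 2.57 CPM in saline-saline and 2.09, 1.65, 2.08 and 1.59 CPM in saline-LPS and a log2 difference of -0.34 (SE 0.21, 95% interval -0.78 to 0.09), which limits a rise to 1.06-fold. Ptgs2, the inducible enzyme of prostaglandin synthesis and fever, had 7.35, 8.57, 9.04 and 9.29 CPM in saline-saline and 10.3, 10.9, 6.37 and 6.69 CPM in saline-LPS and a 95% interval of 0.806 to 1.24-fold. All 22 tested genes of endothelial activation and prostaglandin synthesis were bounded within 2-fold (median log2 -0.0032), and 7 of 11 acute-phase genes (median 0.09).

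Interferon-stimulated and antigen presentation genes did not separate as lists. Of 40 interferon-stimulated genes 39 were bounded within 2-fold and 24 had an estimate above 0, with a median log2 difference of 0.02. The exception was Mx1, an antiviral GTPase below 1 CPM, with 0.240, 0.358, 0.194 and 0.129 CPM in saline-saline and 0.5001, 0.563, 0.585 and 0.245 CPM in saline-LPS (57 against 32 counts) and a log2 difference of 1.02 (SE 0.37, 95% interval 0.24 to 1.80), unadjusted p = 0.0124 and adjusted p = 1.00. Saline-LPS replicates 1, 2 and 3 were above all saline-saline libraries, and replicate 4 was not. Irf7, which amplifies interferon transcription, had 2.67, 2.48, 2.61 and 2.15 CPM in saline-saline and 2.81, 1.88, 2.21 and 1.69 CPM in saline-LPS and a log2 difference of -0.21 (SE 0.20, 95% interval -0.63 to 0.22). Ifit1 and Ifit3, RNA-binding effectors of this response, had log2 differences of 0.21 (SE 0.17, 95% interval -0.13 to 0.56) and 0.05 (SE 0.12, 95% interval -0.20 to 0.30).

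MHC class I was bounded tightly in its abundant members. H2-K1, a classical heavy chain, stood at 31.8, 38.1, 30.6 and 31.3 CPM in saline-saline and 34.8, 35.3, 32.1 and 29.1 CPM in saline-LPS, with a 95% interval of 0.823 to 1.21-fold. B2m, the light chain shared by all class I molecules, stood at 60.2, 60.6, 54.9 and 57.5 CPM in saline-saline and 58.4, 53.7, 61.5 and 62.9 CPM in saline-LPS, with an interval of 0.914 to 1.13-fold. The libraries of the groups were interleaved for both genes. The scarce heavy chains H2-Q6 and H2-Q7, near-identical neighbours whose reads cannot be assigned with certainty, lay lower after pubertal LPS. H2-Q6 had 0.481, 0.925, 1.22 and 0.932 CPM in saline-saline and 0.438, 0.563, 0.195 and 0.460 CPM in saline-LPS (log2 -1.11 (SE 0.32, 95% interval -1.78 to -0.44), unadjusted p = 0.00255) and H2-Q7 0.641, 0.657, 0.971 and 0.450 CPM in saline-saline and 0.344, 0.413, 0.357 and 0.429 CPM in saline-LPS (log2 -0.83 (SE 0.36, 95% interval -1.58 to -0.08), unadjusted p = 0.0318), each with an adjusted p of 1.00. The groups did not overlap for H2-Q7 and overlapped for H2-Q6 through saline-saline replicate 1. H2-T23, a nonclassical heavy chain, lay higher, at 8.58, 9.97, 11.6 and 10.2 CPM in saline-saline and 12.6, 12.3, 13.9 and 10.6 CPM in saline-LPS (log2 0.29, unadjusted p = 0.0116, adjusted p = 1.00). Of the 17 class I genes 15 were bounded within 2-fold, and the list median was 0.03.

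Class II genes, expressed mainly by border macrophages, had 8 tested members with a median of 0.03, all within 2-fold. H2-Ab1, a class II chain, stood at 1.76, 1.58, 2.41 and 2.60 CPM in saline-saline and 2.03, 3.15, 3.31 and 3.50 CPM in saline-LPS, a log2 difference of 0.52 (SE 0.19, 95% interval 0.13 to 0.92) with an unadjusted p of 0.0124 and an adjusted p of 1.00. Its invariant chain partner Cd74 had a log2 difference of 0.32 (SE 0.20, 95% interval -0.09 to 0.74). For both, saline-LPS replicate 1 lay inside the range of saline-saline and the other 3 above it. Border macrophage and monocyte markers summed to 20.2 to 23.1 CPM in saline-LPS and 16.5 to 20.3 CPM in saline-saline, with 8 of 9 tested members above 0 and 0 called; the part of such cells in these values was not tested. In whole tissue, fewer cells of a type and less RNA per cell cannot be told apart.

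Microglial genes held no call, and their bounds differed between lists. All 20 homeostatic microglia genes had an interval within 1.5-fold, where 73.7% of all tested genes did, with 0 at an unadjusted p under 0.05 and a median log2 difference of 0.08. Aif1 (Iba1), the usual histological marker of microglia, stood at 4.30, 4.24, 4.05 and 3.34 CPM in saline-saline and 4.59, 3.45, 5.03 and 3.71 CPM in saline-LPS, a log2 difference of 0.08 (SE 0.14, 95% interval -0.21 to 0.37). Cx3cr1, the fractalkine receptor, was limited to 0.889 to 1.16-fold and Tmem119, a marker of resident microglia, to 0.884 to 1.26-fold. Of 28 activation genes 26 were bounded within 2-fold and 19 within 1.5-fold, and 1, the Fc receptor Fcgr1, had an unadjusted p under 0.05 (log2 0.42 (SE 0.18, 95% interval 0.05 to 0.78), adjusted p = 1.00). Lyz2, lysozyme of myeloid cells, stood at 6.73, 6.597, 6.13 and 6.75 CPM in saline-saline and 5.91, 6.19, 9.03 and 6.69 CPM in saline-LPS, where only saline-LPS replicate 3 lay above the other 7. All 18 complement genes were within 2-fold and 11 within 1.5-fold. Their median of 0.11 was the highest of the 28 pathway lists, with 13 above 0 and 0 at an unadjusted p under 0.05; C1qa, a chain of the initiating complex, had a log2 difference of 0.13 (SE 0.09, 95% interval -0.06 to 0.33).

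Astrocyte genes had estimates mostly above 0, without a call. Gfap, the filament protein of reactive astrocytes, stood at 295, 284, 280.4 and 274.2 CPM in saline-saline and 302, 285, 355 and 311 CPM in saline-LPS. Saline-LPS replicates 1, 3 and 4 were above all saline-saline libraries and replicate 2 among them, and the log2 difference of 0.15 (SE 0.07, 95% interval -0.0015 to 0.29) limits a rise to 1.23-fold. Of 25 reactive astrocyte genes 23 were within 2-fold and 1, S100a10, had an unadjusted p under 0.05. The 18 genes of homeostatic astrocyte function, such as glutamate uptake, potassium buffering and gap junctions, all had estimates above 0, beside 51% of all tested genes. Among them 5 were higher at an unadjusted p under 0.05 (beside 1.64% of all tested genes) and 2 were higher without overlap between the groups (beside 0.853%), and 0 passed the adjusted threshold. Etnppl, an ethanolamine-phosphate lyase of astrocytes, was higher in each saline-LPS library, at 28.6, 31.0, 25.9 and 26.3 CPM in saline-saline and 38.0, 34.5, 43.0 and 33.0 CPM in saline-LPS (log2 0.41 (SE 0.11, 95% interval 0.18 to 0.63), adjusted p = 1.00). Gjb6 (connexin 30), a gap junction protein, had 54.4, 62.7, 56.9 and 60.0 CPM in saline-saline and 74.6, 66.3, 75.1 and 61.8 CPM in saline-LPS (log2 0.25 (SE 0.08, 95% interval 0.09 to 0.41), adjusted p = 1.00), with saline-LPS replicate 4 just below the highest saline-saline library. The abundant transporters Slc1a2 and Slc1a3, which clear glutamate, had log2 differences of only 0.03 and 0.09. Without saline-LPS replicate 1, 13 of the 18 estimates were above 0, and without replicate 3 there were 2 at an unadjusted p under 0.05. The reactive list had 20 of 25 estimates above 0, but 13 without saline-LPS replicate 1 (median 0.0017) and 13 without saline-saline replicate 3.

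**Figure D3:**
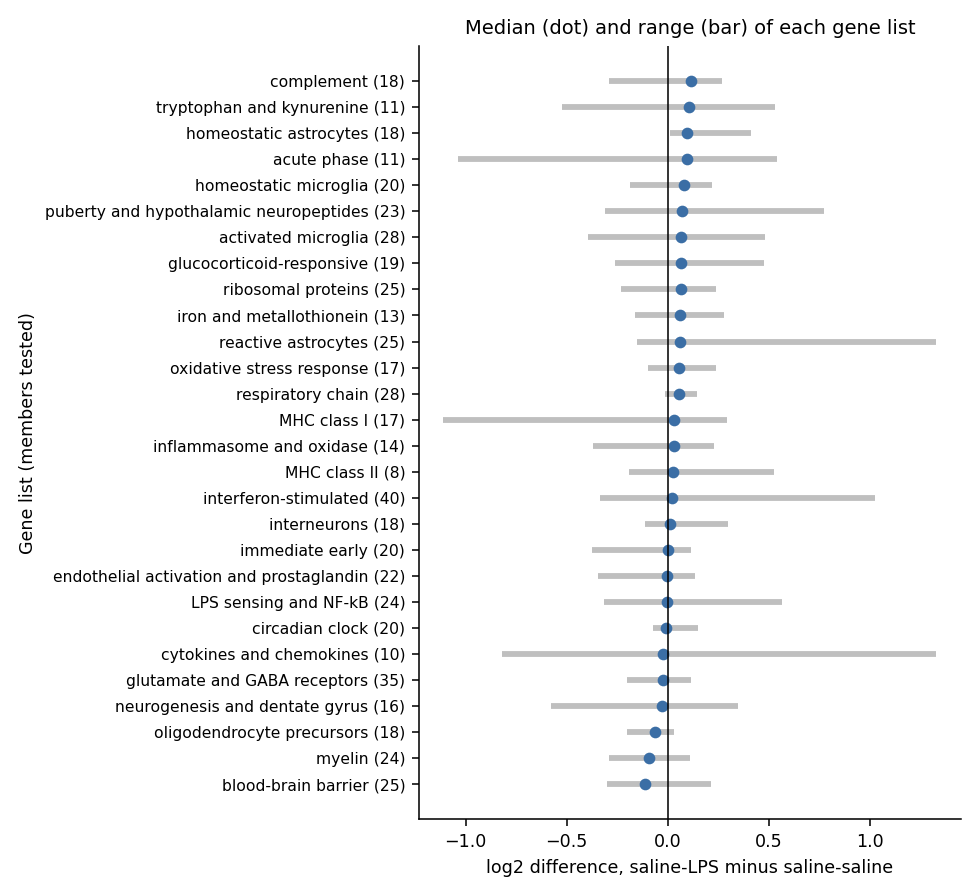
Median (dot) and range (grey bar) of the log2 differences of the tested members of 28 gene lists (y axis, number of members in brackets); the vertical line is the median of all 18875 tested genes. All medians lie between -0.12 and 0.11, and the long bars belong to lists with scarce members such as Cxcl10, H2-Q6 and Saa3.

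Stress hormone and neuronal activity genes were compared because injection and sickness are known to act on both. Tsc22d3 (GILZ), a direct target of the glucocorticoid receptor, stood at 83.5, 81.6, 100.5 and 81.8 CPM in saline-saline and 94.6, 97.0, 94.96 and 89.5 CPM in saline-LPS, a log2 difference of 0.11 (SE 0.08, 95% interval -0.04 to 0.27). Fkbp5, a chaperone of that receptor, was limited to 0.848 to 1.29-fold and Sgk1, a hormone-induced kinase, to 0.817 to 1.60-fold. Mt1, a metallothionein induced by glucocorticoids and metals, had 184, 167, 181 and 176 CPM in saline-saline and 179, 209, 234 and 219 CPM in saline-LPS, so that saline-LPS replicates 2, 3 and 4 were the highest 3 of the 8 (log2 0.25 (SE 0.07, 95% interval 0.10 to 0.39), adjusted p = 1.00). Nr3c2, the mineralocorticoid receptor, lay lower, at 38.9, 43.5, 43.2 and 37.8 CPM in saline-saline and 38.3, 31.2, 31.5 and 35.4 CPM in saline-LPS (log2 -0.26 (SE 0.07, 95% interval -0.41 to -0.11), adjusted p = 1.00), with saline-LPS replicate 1 inside the saline-saline range. Of 19 glucocorticoid-responsive genes 4 were higher and 1 lower at an unadjusted p under 0.05, beside 1.64% and 1.19% of all tested genes, 19 were within 2-fold and the median was 0.06. The list moved with single libraries: 1 was higher without saline-saline replicate 1, 2 higher without saline-LPS replicate 2, and 6 higher with a median of 0.15 without saline-saline replicate 3. Without saline-LPS replicate 1, 2 were higher and 2 lower, beside 4.55% and 5.37% of all tested genes in that fit. Fos, the activity-induced transcription factor, had 45.5, 39.9, 42.5 and 22.1 CPM in saline-saline and 30.6, 30.6, 46.3 and 45.7 CPM in saline-LPS; the values spread about as widely within each group as between them (log2 0.03 (SE 0.26, 95% interval -0.53 to 0.59)). Circadian genes gave a median of -0.01 over 20 members, all within 2-fold.

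Neuronal, oligodendrocyte and vascular lists held no call either. All 35 glutamate and GABA receptor subunits were bounded within 1.5-fold. Of them 4 were lower at an unadjusted p under 0.05 (Gabrb1 among them), beside 1.19% of all tested genes. The lower count was 1 without saline-LPS replicate 3, without saline-LPS replicate 4 or without saline-saline replicate 2. Without saline-LPS replicate 1, 5 were higher and 6 lower, beside 4.55% and 5.37% of all tested genes. The groups did not overlap for 1 of the 35, Gabrb1, beside 0.689% of all tested genes in that direction. Gabrb1, a GABA-A receptor subunit, was lower in every saline-LPS library, at 109.25, 123, 116 and 117 CPM in saline-saline and 108.74, 106, 101 and 106 CPM in saline-LPS, although the log2 difference was small (-0.14 (SE 0.05, 95% interval -0.25 to -0.03), adjusted p = 1.00). Of 24 myelin genes 3 had estimates above 0 (median -0.09) and 2 had an unadjusted p under 0.05, Tspan2 and Mal, whereas 9 were above 0 and 0 at that threshold without saline-LPS replicate 2. Tspan2, a myelin tetraspanin, had 233, 226, 215 and 232 CPM in saline-saline and 213, 157, 209 and 201 CPM in saline-LPS, without overlap (log2 -0.22 (SE 0.08, 95% interval -0.39 to -0.04), adjusted p = 1.00), whereas Mbp, a major myelin protein, had a log2 difference of 0.05 (SE 0.09, 95% interval -0.14 to 0.24). The blood-brain barrier list had the lowest median of the 28 (-0.12), with 20 of 25 estimates below 0, 1 gene lower and 1 higher at an unadjusted p under 0.05. All 28 respiratory chain genes and 24 of 25 ribosomal protein genes were bounded within 1.5-fold, with medians of 0.05 and 0.06, which were 0.01 and 0.03 without saline-LPS replicate 4. Of 23 tested genes on the puberty and hypothalamic peptide list, 2 were higher without overlap between the groups, beside 0.853% of all tested genes. They were Esr1 (oestrogen receptor alpha) and Cartpt, an appetite-related peptide. At an unadjusted p under 0.05, 2 of the 23 were higher, beside 1.64% of all tested genes, and 1 to 4 when single libraries were left out. Cartpt had 14.9, 11.6, 14.9 and 12.2 CPM in saline-saline and 15.4, 17.9, 15.04 and 16.9 CPM in saline-LPS (log2 0.28 (SE 0.10, 95% interval 0.08 to 0.48)), and Esr1 a log2 difference of 0.32 (SE 0.14, 95% interval 0.03 to 0.61), both with an adjusted p of 1.00.

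Over the 28 lists together, 547 of 583 genes were tested, 0 passed, 21 lay higher and 13 lower at an unadjusted p under 0.05 (beside 1.64% and 1.19% of all tested genes), and 520 were bounded within 2-fold (beside 89.5%). The median kept its sign for 14 of the 28 lists when each of the 8 libraries was left out in turn, and had another sign at least once for the other 14. The 27 that were not were mainly genes below 1 CPM, such as Cxcl10, Saa3, Casp4 and Kmo. Those above 1 CPM were Pomc, Tph2, Neurod1, Top2a, Npas4, Btg2, Flt1 and Pvalb. These include genes of the pituitary, hindbrain and cerebellum, whose share differed between the libraries, and the activity-induced Npas4 and Btg2.

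The remaining lists held no call. Inflammasome and oxidase genes had 13 of 14 tested members within 2-fold (median 0.03) and the oxidative stress response 17 of 17 (median 0.06), each with 0 at an unadjusted p under 0.05. The kynurenine pathway, which breaks down tryptophan in inflammation, was poorly bounded, with 6 of 11 members within 2-fold (median 0.10). Iron and metallothionein genes had 2 of 13 higher at that threshold, Mt1 and the ferroxidase Heph (log2 0.28, adjusted p = 1.00), and 13 within 2-fold. Of all tested genes 1.64% were higher and 1.19% lower at that threshold. Leaving out single libraries gave 1 to 3 of the 13 higher. Oligodendrocyte precursor genes had 1 of 18 lower, Tnr (log2 -0.15), and 18 within 1.5-fold, and interneuron genes 0 of 18 and 17. Neurogenesis genes had 1 of 16 lower, the proliferation gene Top2a (log2 -0.58 (SE 0.24, 95% interval -1.09 to -0.07), adjusted p = 1.00). When single libraries were left out, the lower counts ran from 0 to 5 for precursor genes and from 0 to 3 for neurogenesis genes. The 5 was without saline-LPS replicate 1, where 5.37% of all tested genes were lower. Immediate early genes had 0 of 20 at that threshold, 18 within 2-fold and a median of 0.0025.

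Genes at the top of the ranking by p did not pass and are described by their values. Mbd2, a reader of methylated DNA, came first (unadjusted p = 0.000113, adjusted p = 1.00), at 40.6, 44.4, 40.8 and 37.4 CPM in saline-saline and 33.0, 31.5, 32.7 and 34.3 CPM in saline-LPS, a log2 difference of -0.31 (SE 0.07, 95% interval -0.45 to -0.17). All saline-LPS libraries were below all saline-saline libraries. Slc9a4, a sodium-proton exchanger, stood at 2.59, 2.48, 2.44 and 1.93 CPM in saline-saline and 1.31, 1.69, 0.974 and 1.53 CPM in saline-LPS (log2 -0.78 (SE 0.19, 95% interval -1.19 to -0.38)), also without overlap. Lower as well were Cdh23, a cadherin of hair cells (log2 -0.39 (SE 0.11, 95% interval -0.62 to -0.17)), Npy2r, a neuropeptide Y receptor (-0.33 (SE 0.10, 95% interval -0.53 to -0.13)), and Epha6, an ephrin receptor (-0.36 (SE 0.11, 95% interval -0.58 to -0.14)). Of these, Cdh23 and Npy2r did not overlap between the groups and Epha6 did, through saline-saline replicate 1.

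Among the genes with higher values, Slc13a4, a sulfate transporter of meninges and choroid plexus (chromosome 6, 35267957 to 35308131, GRCm38), came first, at 17.6, 15.8, 18.4 and 16.6 CPM in saline-saline and 17.8, 22.8, 23.6 and 23.9 CPM in saline-LPS, a log2 difference of 0.36 (SE 0.09, 95% interval 0.18 to 0.55) with an adjusted p of 1.00. Saline-LPS replicates 2, 3 and 4 were above all saline-saline libraries and replicate 1 was among them. Fbln1, a matrix glycoprotein, stood at 12.3, 11.6, 12.9 and 10.9 CPM in saline-saline and 16.0, 15.5, 14.2 and 16.2 CPM in saline-LPS without overlap (log2 0.37 (SE 0.09, 95% interval 0.18 to 0.57)). Igfbp2, a binding protein of insulin-like growth factors, had 61.8, 59.0, 64.4 and 58.6 CPM in saline-saline and 69.0, 74.0, 80.7 and 73.1 CPM in saline-LPS, again without overlap (log2 0.28 (SE 0.07, 95% interval 0.13 to 0.44)). The mitochondrial carrier Slc25a34 and the matrix phosphoprotein Dmp1 had log2 differences of 0.43 (SE 0.11, 95% interval 0.20 to 0.66) and 0.54 (SE 0.14, 95% interval 0.25 to 0.84), each with an adjusted p of 1.00. Of 13 meningeal fibroblast markers 12 had estimates above 0 (median 0.20), 3 higher at an unadjusted p under 0.05, and of 12 choroid plexus markers 10 (median 0.16), also 3, beside 1.64% of all tested genes. Single libraries carried much of this. Without saline-LPS replicate 3 the choroid plexus list had 5 of 12 above 0, a median of -0.05 and 0 at that threshold. Without saline-LPS replicate 4 the meningeal list had 7 of 13 above 0 and a median of 0.10. Without saline-LPS replicate 1 its median was 0.29, with Slc13a4 called and 5 higher at that threshold, beside 4.55% of all tested genes in that fit. Their summed levels were 321, 264, 274.1 and 286 CPM in saline-saline and 261, 309, 353 and 369 CPM in saline-LPS for meninges and 443, 394, 372 and 329.8 CPM in saline-saline and 410.2, 491, 658 and 336 CPM in saline-LPS for choroid plexus. The meningeal sums overlapped between the groups, and the part of meningeal tissue in the higher genes was not tested.

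Cerebellar markers differed between the libraries within both groups. Gabra6, a GABA-A receptor subunit of cerebellar granule cells, stood at 0.134, 0.0597, 0.277 and 44.4 CPM in saline-saline and 0, 0.0375, 70.4 and 19.5 CPM in saline-LPS. It was near 0 in saline-saline 1, 2 and 3 and saline-LPS 1 and 2, and between 19.5 and 70.4 CPM in saline-saline 4 and saline-LPS 3 and 4. Cbln3, a granule cell synaptic organiser, followed the same libraries, at 0.721, 0.776, 0.721 and 90.5 CPM in saline-saline and 0.469, 0.676, 128 and 36.1 CPM in saline-LPS, and so did Fat2, a granule cell cadherin. The 7 granule cell markers summed to 109.8, 106, 112 and 434 CPM in saline-saline and 117, 106, 548 and 231 CPM in saline-LPS, where the other members are also expressed outside the cerebellum. The log2 difference of Gabra6 was therefore 1.03 (SE 1.95, 95% interval -3.21 to 5.28), and neither direction can be read from it. Among the 15 genes of at least 5 CPM that varied most within the groups, cerebellar genes prevailed (Gabra6, Cbln3, Fat2, Cnpy1, Ppp1r17, Car8, En2, Neurod1 and Il16), beside Slc6a5 and Tph2 of the hindbrain, Gh, the haemoglobins Hba-a1 and Hbb-bs, and Xlr3b. Hindbrain markers split differently: Tph2, the serotonin-synthesis enzyme of the raphe, was at 1.40 CPM in saline-saline 2 and at 1.84 and 1.01 CPM in saline-LPS 1 and 2, against 8.39 to 12.02 CPM in the other 5.

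The comparison was also made with account of the cerebellar markers. With the granule cell marker mean as a covariate 0 genes were called, as with the granule cell and pituitary means together. Among the libraries under 1 CPM of Gabra6, 3 saline-saline and 2 saline-LPS, 0 were called and 658 had an unadjusted p under 0.05. Among those at 1 CPM or more, 1 saline-saline and 2 saline-LPS, the numbers were 0 and 1802, but an arm of 1 library says nothing about the stability of the count. Some list medians differed between these sets, however. The respiratory chain median was -0.07 in the libraries with little Gabra6 and 0.18 in those with more, the ribosomal protein median -0.06 and 0.22, and the meningeal fibroblast median -0.07 and 0.42. The difference between the sets was not tested.

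Pituitary RNA was carried almost wholly by 1 library. Gh, growth hormone, stood at 0.374, 0.0597, 0.388 and 0 CPM in saline-saline and 44.1, 1.201, 0 and 2.58 CPM in saline-LPS, and the 1527 counts of saline-LPS against 30 of saline-saline were mostly from replicate 1. Prl, prolactin, had 0.0267, 0.0299, 0.0277 and 0 CPM in saline-saline and 5.94, 0.225, 0.0325 and 0.215 CPM in saline-LPS, and Fshb, a gonadotropin subunit, 19 counts in saline-LPS replicate 1 and 0 in the other 7 libraries. The 12 anterior pituitary markers summed to 6.92, 4.92, 6.32 and 6.10 CPM in saline-saline and 63.7, 10.9, 6.46 and 9.94 CPM in saline-LPS. Pomc, made in the pituitary and in the arcuate hypothalamus, had 4.36, 3.01, 4.13 and 3.73 CPM in saline-saline and 9.97, 7.58, 3.90 and 4.66 CPM in saline-LPS, the highest values being in saline-LPS replicates 1 and 2. None of those tested passed, and 8 of the 12 markers were too scarce to be tested. Red blood cell markers also varied, with sums of 44.0, 117, 30.4 and 37.1 CPM in saline-saline and 155, 222, 62.6 and 19.9 CPM in saline-LPS; they were highest in saline-LPS 2 and 1 and saline-saline 2. Neutrophil markers were scarce in every library (4.62, 2.96, 1.22 and 3.50 CPM in saline-saline and 1.25, 2.89, 4.58 and 3.59 CPM in saline-LPS, summed over 11 genes), and 1 of 6 tested lymphocyte markers, Ighm, had an unadjusted p under 0.05. Markers of cortex, striatum, olfactory bulb and pineal gland, 22 tested genes, had list medians of 0.03, -0.02, 0.03 and 0.04, with 0 at that threshold. The medians of the granule cell, Purkinje cell and Bergmann glia, pituitary, red blood cell and hindbrain lists were 0.38, 0.11, 0.73, 1.01 and -0.15, also with 0. These medians turned on single libraries. The granule cell median was -0.62 without saline-LPS replicate 3 and 1.51 without saline-saline replicate 4, and the Purkinje cell and Bergmann glia median -0.27 and 0.64. The red blood cell median was 0.45 without saline-LPS replicate 2 and 1.60 without saline-saline replicate 2, the pituitary median 0.39 without saline-LPS replicate 1, and the hindbrain median 0.19 without saline-LPS replicate 2 and -0.64 without replicate 4.

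**Figure D4:**
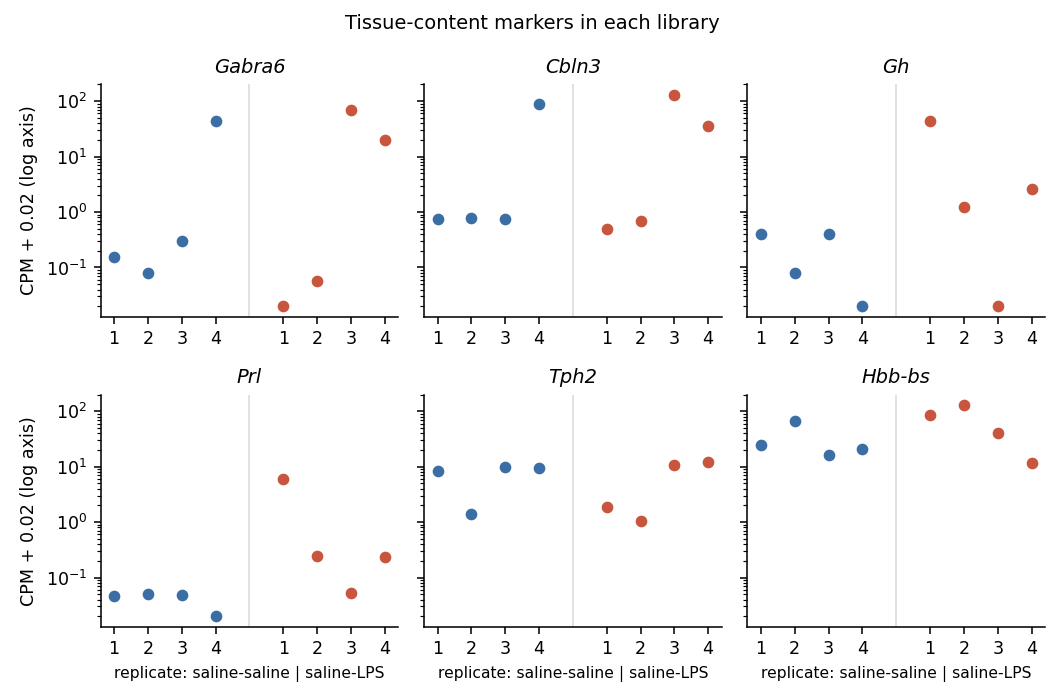
Levels (CPM + 0.02, log axis) of markers of cerebellar granule cells (Gabra6, Cbln3), pituitary (Gh, Prl), hindbrain raphe (Tph2) and red blood cells (Hbb-bs) in each library (x axis, replicate numbers; blue, saline-saline; red, saline-LPS; each point is 1 mouse). Gabra6 and Cbln3 are high in saline-saline 4 and saline-LPS 3 and 4, and Gh and Prl are highest in saline-LPS 1.

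Saline-LPS replicate 1 decided the count of called genes. The first principal component of the 8 libraries held 54% of the variance and placed this library at -20.4, opposite to saline-LPS 3 and 4 at 19.1 and 15.5. Saline-LPS 2 lay at -6.79, and saline-saline 1 to 4 at -6.06, -12.1, 0.79 and 10.05. The highest scores were thus those of saline-LPS 3 and 4 and saline-saline 4, the libraries high in Gabra6. The deviations of the same libraries also had the most negative correlations with GC content (-0.372, -0.472 and -0.476). The part of either in this component was not tested. The median SD of log2 expression was 0.136 in saline-LPS and 0.0936 in saline-saline, and 0.107 in saline-LPS without replicate 1. Without that library, 3 genes (0.0159%) passed (edgeR's quasi-likelihood test, Benjamini-Hochberg adjusted p), 858 lay higher (4.55%) and 1013 lower (5.37%) at an unadjusted p under 0.05. When the libraries of prenatal LPS were left out too, 5 genes passed (0.0265%), with 3.09% of genes higher and 4.56% lower at an unadjusted p under 0.05. Leaving out any of the other 7 libraries gave 0 calls. These fits compare 3 saline-LPS mice with 4 saline-saline mice, and the second was chosen after seeing the first. Replicate 1 was under 1 CPM of Gabra6, so leaving it out also shifted the cerebellar balance of the groups. Libraries at 1 CPM or more of Gabra6 were then 2 of 3 in saline-LPS and 1 of 4 in saline-saline. The part of this shift in the counts was not tested.

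Dsp (desmoplakin, a desmosome protein, chromosome 13, 38151294 to 38198577, GRCm38) stood at 6.01, 7.28, 5.32 and 6.33 CPM in saline-saline and 8.91, 3.68, 2.86 and 2.09 CPM in saline-LPS. Saline-LPS replicate 1 was the highest of the 8 libraries and the other 3 were the lowest, so that the log2 difference was -0.50 with all libraries and -1.13 (SE 0.19) without replicate 1 (adjusted p = 0.0353). Gm2115, a predicted gene, had the same arrangement, at 23.2, 23.3, 20.5 and 20.7 CPM in saline-saline and 25.7, 13.8, 14.6 and 14.1 CPM in saline-LPS, with a log2 difference of -0.63 (SE 0.08) without replicate 1 (adjusted p = 0.00120). Slc13a4 was the third, with a log2 difference of 0.45 (SE 0.08) (adjusted p = 0.0353). For these 3 genes replicates 2, 3 and 4 lay on one side of all saline-saline libraries and replicate 1 did not.

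Genes of thalamus and midbrain showed this arrangement as a group. Prkcd, a protein kinase C isoform of thalamic relay neurons (chromosome 14, 30595354 to 30626210, GRCm38), stood at 92.6, 91.6, 80.1 and 77.3 CPM in saline-saline and 107, 50.6, 47.5 and 41.8 CPM in saline-LPS; its log2 difference was -0.47 (SE 0.28, 95% interval -1.08 to 0.14) with all libraries and -0.87 (SE 0.19) without replicate 1, which did not pass in the fit with all 3 other groups (adjusted p = 0.221) but did in the 7 libraries alone (adjusted p = 0.000388). Plekhg1, a guanine nucleotide exchange factor on the same list, had 45.9, 48.2, 33.6 and 36.3 CPM in saline-saline and 46.6, 24.7, 22.2 and 24.4 CPM in saline-LPS and passed only in the 7 libraries alone (log2 -0.79, adjusted p = 0.0394). Plekhh1, on the myelin list, had 51.7, 54.9, 45.6 and 50.8 CPM in saline-saline and 64.0, 31.7, 36.4 and 33.3 CPM in saline-LPS and passed in the same fit (log2 -0.59, adjusted p = 0.0129). The 8 thalamus and midbrain markers summed to 299, 280.1, 257 and 259 CPM in saline-saline and 321, 193, 212 and 203 CPM in saline-LPS. In the offspring of LPS-injected dams the sums were 211, 200, 186 and 242 CPM in LPS-saline and 218, 203, 196 and 157 CPM in LPS-LPS. The saline-saline libraries and saline-LPS replicate 1 thus lay above all other libraries of the series. Without replicate 1, 7 of these 8 markers had an unadjusted p under 0.05 in the lower direction (median log2 -0.45), beside 5.37% of all tested genes, and with it 1 of 8 (median -0.19). Without saline-LPS replicate 3 there were 0 of 8 (median -0.07). The list holds Prkcd and Plekhg1 and was chosen with earlier results of these data known. Replicate 1 was singled out in the same data, so the 7 of 8 is not independent of the calls above. The part of tissue content in these lower values was not tested.

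**Figure D5:**
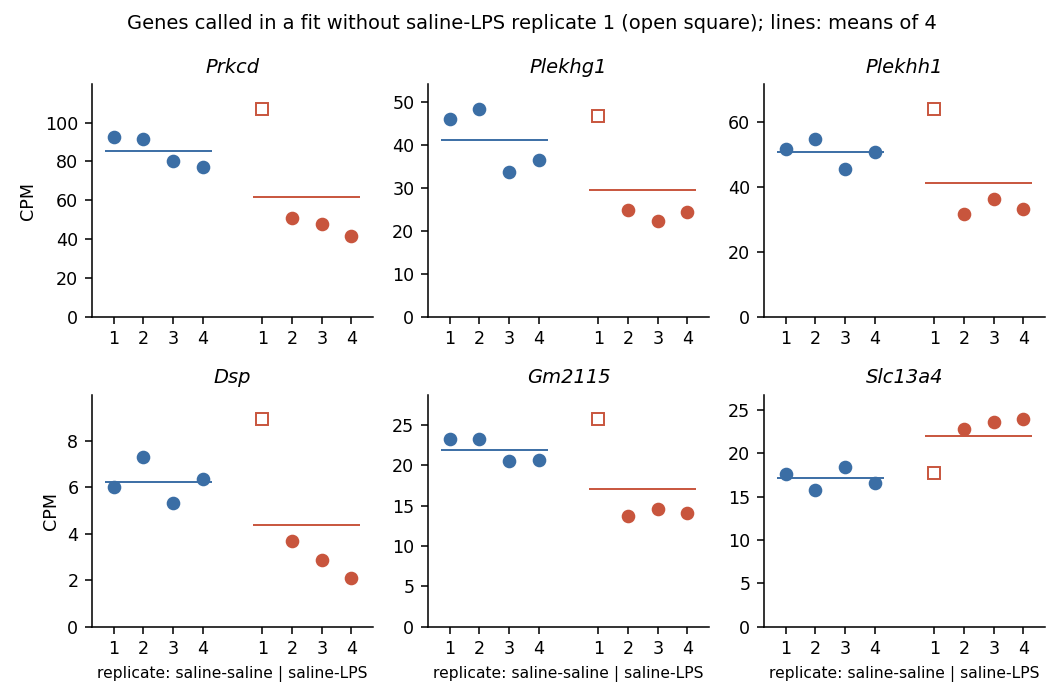
CPM (y axis, from 0) in each library (x axis, replicate numbers; blue, saline-saline; red, saline-LPS; open square, saline-LPS replicate 1; lines, means of 4) for 6 genes called in a fit without saline-LPS replicate 1. In 5 genes replicates 2 to 4 of saline-LPS lie below all saline-saline libraries and replicate 1 does not, and Slc13a4 has the opposite direction.

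Vascular genes had lower estimates without this library, again with no call. Without replicate 1, 11 of 25 blood-brain barrier genes lay lower at an unadjusted p under 0.05 (median log2 -0.27), beside 5.37% of all tested genes, against 1 of 25 with all libraries, and 0 passed the adjusted threshold in either. Other libraries moved the list the other way: without saline-LPS replicate 3 it had 0 lower, 10 of 25 estimates above 0 and a median of -0.02, and without replicate 4 it had 0 lower and a median of -0.04. Flt1, an endothelial VEGF receptor, stood at 51.6, 71.1, 35.7 and 45.9 CPM in saline-saline and 75.5, 39.1, 25.01 and 27.4 CPM in saline-LPS, with saline-LPS replicate 1 the highest of all. Slc2a1, the glucose transporter of the barrier, stood at 104, 115, 111 and 106 CPM in saline-saline and 139.8, 104, 80.0 and 78.6 CPM in saline-LPS, again with that library the highest. Rgs5, a pericyte gene, had 62.7, 76.9, 55.9 and 78.0 CPM in saline-saline and 71.9, 52.8, 44.5 and 52.8 CPM in saline-LPS and log2 differences of -0.30 with and -0.45 without replicate 1. In the libraries under 1 CPM of Gabra6 the list median was 0.06, so that its sign was not the same in both sets. Of the inflammatory lists, without replicate 1, LPS sensing and NF-kB had 0 of 24 members at an unadjusted p under 0.05, homeostatic microglia 0 of 20 (median -0.04), cytokines 2 of 10 lower and complement 1 of 18 higher. MHC class I had 2 of 17 higher and 1 lower, interferon-stimulated genes 1 of 40 higher and 1 lower, and reactive astrocytes 2 of 25 higher and 1 lower. Respiratory chain genes had 9 of 28 and ribosomal protein genes 10 of 25 higher at that threshold, beside 4.55% of all tested genes, again with 0 called. With all libraries these counts were 0 of 28 and 1 of 25.

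Gene length went with these differences. Over 11929 genes with a mean of at least 5 CPM, the log2 difference correlated with exonic length with a Spearman coefficient of -0.348 and with GC content at 0.072, across genes, which are not independent. Deviations of single libraries from the mean correlated with length at 0.202 in saline-LPS replicate 1 and at -0.126, -0.256 and -0.223 in replicates 2, 3 and 4, and at -0.083, 0.324, -0.023 and 0.213 in saline-saline. With GC content they correlated at 0.485, 0.427, -0.372 and -0.472 in saline-LPS and at 0.287, 0.077, -0.07 and -0.476 in saline-saline. The signs differed within each group, so the 0.072 does not show how far single libraries differed in GC content. With a correction for length and GC content 0 genes were called in all libraries, and 6 without saline-LPS replicate 1, Dsp, Gm2115 and Slc13a4 among them.

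The difference after pubertal LPS was not shown to depend on the prenatal injection. The interaction of both injections had 0 calls (0%) by edgeR's quasi-likelihood test, with 402 genes at an unadjusted p under 0.05. DESeq2 called 1, the ribosomal protein gene Rps28. Intervals are wider for an interaction, and 15015 of 18875 genes were bounded within 2-fold. The test of one injection against the other, which does not use saline-saline, had calls: 14 genes were higher in LPS-saline (0.0742%) and 4 in saline-LPS (0.0212%). H2-K1 stood at 63.5 ± 13.2 CPM (SD, n = 4) after prenatal LPS alone and 32.8 ± 2.88 CPM (SD, n = 4) after pubertal LPS alone. Their log2 difference was 0.95 (SE 0.13, adjusted p = 0.00323 by edgeR's quasi-likelihood test). In saline-saline H2-K1 averaged 32.9 CPM. B2m and Lyz2 were among the 14 as well. Etnppl, Gjb6, Tsc22d3 and Sult1a1, with saline-saline means between those of the groups compared, were the 4 higher after pubertal LPS than after prenatal LPS. Among the libraries with Gabra6 at 1 CPM or more this comparison had 1 call, and without saline-LPS replicate 3 it had 11.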

How the data were processed

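The authors deposited raw counts of reads for each Ensembl gene. The submitters' processing notes name STAR 2.5.2b, HTSeq 0.11.2 and the build GRCm38. RNA was extracted with a column kit from the brain of 1 mouse per library, per the labels' protocols. For the strand setting, annotation release and read filters nothing is stated, so reads of overlapping or antisense genes cannot be told apart. Each file lists 49671 genes and 5 special rows, which were left out; reads without a gene made up 8.91 to 11.0% of all counts in the 8 libraries, ambiguous reads 5.11 to 5.34% and reads aligned more than once 3.18 to 3.90%. Symbols and coordinates were taken from GENCODE M21 (49412 identifiers matched, 259 not; Kiss1 is not analysed here).

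Counts were tested with edgeR 4.0.16 in R 4.3.3 (TMM, filterByExpr, robust quasi-likelihood fit of 4 groups and 16 libraries, two-sided, Benjamini-Hochberg over 18875 genes, threshold 0.05). The biological coefficient of variation was 10.4%. SE is the unshrunk coefficient divided by the square root of F. CPM is the count scaled by the library's total of gene counts times its TMM factor. No libraries of a group were duplicates (chi-square per degree of freedom 6.14 to 35.5). The scripts were tested on simulated counts. Alternatives were DESeq2 1.42.0, limma 3.58.1 voom, other scalings and filters, covariates and subsets. Each saline-LPS and saline-saline library, and the LPS-LPS library without Ddx3y, was also left out in turn. A floor of 3 counts is the upper limit that 0 counts allow and covers counting error only.

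The members, the 28 pathway and 16 marker lists and the tests were chosen with earlier results of these data known. Genes are named by a rule: 19 fixed genes, the 6 with the smallest p per direction at 1 CPM or more, the 2 with the smallest p per list, the content markers a result turns on and the 15 most variable genes at 5 CPM or more. Other genes given in the text are list members, Y-linked genes or genes that stood out in one fit, and were added after their values were seen.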

Additional observations from a re-analysis of the deposited data

Results flagged for a closer look

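Among 246 sets of 4 libraries (1 gene or marker sum in 1 group each), 34 had a highest or lowest library set apart from the other 3 by more than Dixon's 95% limit for the gap over the range. For genes picked without regard to their values, chance flags about 1 in 20 groups. The sets here include the most variable genes, genes called only without saline-LPS replicate 1, and sums of the same markers. Neither the 34 nor their split between libraries can therefore be read against that share. Of these 34 libraries, 14 were saline-LPS replicate 1 and 12 saline-saline replicate 4.

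Saline-saline replicate 4 was high in genes of the cerebellum: Gabra6 stood at 44.4 CPM, Cbln3 at 90.5 CPM, Fat2 at 53.6 CPM, Cnpy1 at 38.6 CPM and Il16 at 12.5 CPM. In the same library Car8, a Purkinje cell gene, stood at 122 CPM, Ppp1r17 at 17.0 CPM, En2 at 16.3 CPM and Neurod1 at 29.3 CPM. Its granule cell markers summed to 434 CPM and its Purkinje cell and Bergmann glia markers to 782 CPM. The latter sum set saline-LPS replicate 3 apart as well, at 664 CPM. Prl was at 0 CPM in saline-saline replicate 4 alone, a difference of single reads.

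Saline-LPS replicate 1 was high in the pituitary genes Gh (44.1 CPM), Prl (5.94 CPM) and Fshb (0.594 CPM), and in the summed pituitary markers (63.7 CPM). It was high in the thalamus and midbrain sum (321 CPM), in Prkcd (107 CPM) and Plekhg1 (46.6 CPM), and in Plekhh1 (64.0 CPM), Gm2115 (25.7 CPM) and Slc44a5 (15.003 CPM). It was low in Cd74 (2.41 CPM), S100a10 (17.9 CPM) and the respiratory chain gene Ndufa2 (44.4 CPM). Among the saline-LPS libraries it alone held reads of Saa3 (0.0938 CPM).

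Saline-saline replicate 2 was high in the haemoglobins Hba-a1 (37.5 CPM) and Hbb-bs (66.7 CPM), in the red blood cell sum (117 CPM) and in H2-K1 (38.1 CPM), and low in Tph2 (1.40 CPM). Saline-saline replicate 3 was high in Nfkbia (25.2 CPM) and Tsc22d3 (100.5 CPM).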

How the results depend on the processing

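For the pubertal comparison the count of 0 held in the fits with another scaling, tool or filter, with the 8 libraries alone, with the content covariates, with the GC and length correction and within the libraries under 1 CPM of Gabra6. The set at 1 CPM or more has 1 saline-saline library, and its 0 says nothing about stability. Leaving out 1 library at a time gave 0 to 3 calls, the 3 only without saline-LPS replicate 1. Chosen after seeing the data, that library was left out together with the prenatal LPS libraries (5 calls) and with the GC and length correction (6 calls). Genes bounded within 2-fold numbered 8108 at a 1.2-fold margin in place of 2-fold. They numbered 16376 to 16518 when 1 saline-LPS or saline-saline library was left out, and 16874 without the LPS-LPS library that lacks Ddx3y. The interaction had 1 call by DESeq2. LPS-saline against saline-LPS had 18, but 62 by DESeq2, 57 with the cerebellar covariate and 1 within the libraries at 1 CPM or more of Gabra6. With 1 saline-LPS or saline-saline library left out it had 11 to 22, the 11 without saline-LPS replicate 3. No LPS-saline library was left out, so that arm was not checked in this way, and saline-saline enters the comparison only through the shared spread. The cause of these changes was not tested.

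The replicate block gave 0 calls (797 at an unadjusted p under 0.05) and, among the 8 libraries alone, 1, the predicted gene Gm43305 (log2 -0.92). For LPS-saline against saline-LPS the block gave 39. Same-numbered libraries of saline-saline and saline-LPS correlated in their deviations at 0.287, 0.261, 0.005 and 0.45, and not every library correlated best with its own number, so the numbers were not taken to pair the mice.

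Of 92 tested genes named by the rule, 63 kept the sign of their difference in every alternative that gave a value (21 to 25 per gene) and 29 changed it in at least 1; only Slc13a4 was called in any (0.45 and, with the GC and length correction, 0.48, both without saline-LPS replicate 1). Depth limits genes under 1 CPM, of which 48.8% were bounded within 2-fold.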
